A study of Mus musculus with 10 samples.

Results

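The subject is the variation among the 5 wild-type (WT) colon tumours of the series, which holds 10 arrays in all. They were chosen by their genotype label alone, with no measured value used. Each was cut from the colon by laser microdissection, the removal of selected tissue from a section under a microscope, and its RNA was amplified and hybridised to 1 Affymetrix Mouse Genome 430 2.0 array. Tumours 1, 3, 12 and 13 came from mouse 72 and tumour 8 from mouse 82, so 4 of the 5 tumours share an animal and tumour 8 is the single tumour of its mouse. The other 5 arrays, of vil-Cre-Bcl9-/-/Bcl9l-/- tumours, entered no comparison and served only in the choice of a probe set for each gene.

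All WT mice were labelled wildtype on a 129SvEv/C57BL/6/DBA/2 mixed background. At 6 to 8 weeks of age they received 1 dose of dimethylhydrazine (DMH, 44 mg/kg), which the liver converts to the carcinogen azoxymethane, and then 2% dextran sulfate sodium (DSS), a compound that injures the colon lining, for 7 days. Colon pieces of 1 cm were frozen and cut into 14 µm sections, the RNA of a sample was eluted in 20 µL, and 30 ng of it went into the amplification. The extraction text speaks of pooling the samples of a mouse, whereas 4 arrays list the same mouse as different tumours. The arrays were taken as single tumours, as the design text lists them. In the titles the number after the word tumor is the design text's unique ID (254 for tumour 1, 216 for tumour 13, 229 for tumour 8, 191 for tumour 3 and 215 for tumour 12), and the tumour numbers used here are those of the sample IDs.

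Colon epithelium is renewed from stem cells at the base of the crypt, which are kept up by Wnt signalling through beta-catenin and TCF/LEF factors. Their offspring mature into absorptive colonocytes, which take up salt and water, into goblet cells, which secrete mucus, and into rarer hormone-secreting enteroendocrine and chemosensory tuft cells. Tumours induced by DMH or azoxymethane with DSS typically carry activating changes in the Wnt pathway, and a dissected piece of tumour also holds stroma, vessels and immune cells. How the level of each of these groups of genes differed from tumour to tumour is described below.

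The values are log2 signals, on which a difference of 1 is a 2-fold ratio. Medians over all 45101 probe sets ran from 6.43 to 6.50 in the 5 arrays. Of 18193 genes with a probe set, 12250 had a mean over the 5 tumours at or above 5.82, and only they are counted below. This level is the 40th percentile of the means over the 5 tumours of all probe sets other than controls. The epithelial genes Epcam and Krt19 were among the strongest signals in every tumour, and Xist lay between 12.63 and 12.91 while the Y-linked Eif2s3y, Kdm5d and Uty stayed at or below 3.88. Bcl9 and Bcl9l, the genes named in the vil-Cre genotype label of the series' other tumours, ranged from 8.07 to 8.53 and from 8.04 to 8.39. With 1 group, 5 arrays and 2 mice there is nothing to test a difference against, so no p-value is given and every statement describes these 5 libraries. The number of arrays limits the precision. Values well below 5.82 may be background, which was not analysed here, so a difference that reaches down to them is not read as an exact fold.

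The strongest signals came from genes of every cell's basic machinery and from epithelial genes, and they hardly moved between tumours. The 20 genes with the highest mean included Malat1, a nuclear non-coding RNA, at 14.00 ± 0.09 (SD, n = 5 tumours), and Pebp1, a kinase inhibitor protein, at 13.91 ± 0.05. Translation genes stood beside them, with the elongation factor Eef1a1 at 13.74 ± 0.06 and the ribosomal protein gene Rpl41 at 13.72 ± 0.05. Vdac1, the outer-membrane channel of mitochondria, Ywhae, a 14-3-3 protein, and the beta-actin gene Actb read 13.70, 13.68 and 13.52 on average. Epcam, the epithelial adhesion molecule, was at 13.47 in tumour 1, 13.58 in tumour 13, 13.54 in tumour 8, 13.61 in tumour 3 and 13.72 in tumour 12. Krt19, a keratin of simple epithelia, had the largest SD of the 20, at 0.31, and was lowest in tumour 1 (13.11) and highest in tumour 12 (13.90). Probe sets differ in how strongly they bind and signal, so this order is one of signals and not of transcript numbers.

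Most genes varied little and a minority varied a great deal. The SD over the 5 tumours had a median of 0.23, a 5th percentile of 0.0853, a 95th percentile of 0.83 and a maximum of 3.93. An SD of at least 1 was reached by 354 genes (2.89%), and an SD of at least 2 by 33. The highest and the lowest tumour differed at least 2-fold in 2755 genes (22.5%). Over all probe sets the arrays of tumours 1 and 3 were the least alike (Pearson r = 0.9686, with 1520 genes differing at least 2-fold). By r the arrays of tumours 3 and 12 were the most alike (r = 0.9852, 571 genes). Next came 1 and 13 (0.9843, 543 genes) and 8 and 13 (0.9832, 468 genes). By the number of genes differing the order of these pairs was the reverse, with 8 and 13 the most alike. Probe sets are not independent replicates, and these r values only rank the pairs. The pair 8 and 13 comes from different mice, and the most distant pair, 1 and 3, from the same mouse.

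Tumours 1 and 3 stood apart in more genes than the other tumours did. A tumour was counted as apart in a gene where it lay at least 2-fold above, or at least 2-fold below, each of the other 4. Tumour 1 was apart in 92 genes as the highest (0.751%) and in 142 as the lowest (1.16%). Tumour 3 was apart in 19 as the highest (0.155%) and in 162 as the lowest (1.32%), the most one-sided split of the 5. For tumour 8 these counts were 59 (0.482%) and 28 (0.229%), for tumour 12 they were 26 (0.212%) and 36 (0.294%), and for tumour 13 they were 23 (0.188%) and 7 (0.0571%). In all 561 genes (4.58%) had such a tumour, and tumours 1 and 3 supplied 39.4% and 30.5% of the 594 calls. These counts depend on which tumours are present, since a tumour that resembles another is bounded by it. Without tumour 12, tumour 3 was apart in 133 genes as the highest and 285 as the lowest. Without tumour 3, tumour 12 was apart in 105 and 123, and without tumour 8 it was the highest in 47. Without tumour 13, tumour 1 was apart in 152 and 257, and without tumour 8 it was the highest in 163. Without tumour 1, tumour 13 was apart in 51 and 61, without tumour 8 in 50 and 15, and without tumour 12 in 36 and 14. Tumour 8 was the highest in 108 genes without tumour 1 and in 107 without tumour 13, and the lowest in 52, 50 and 47 without tumours 1, 3 and 13.

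**Figure D1:**
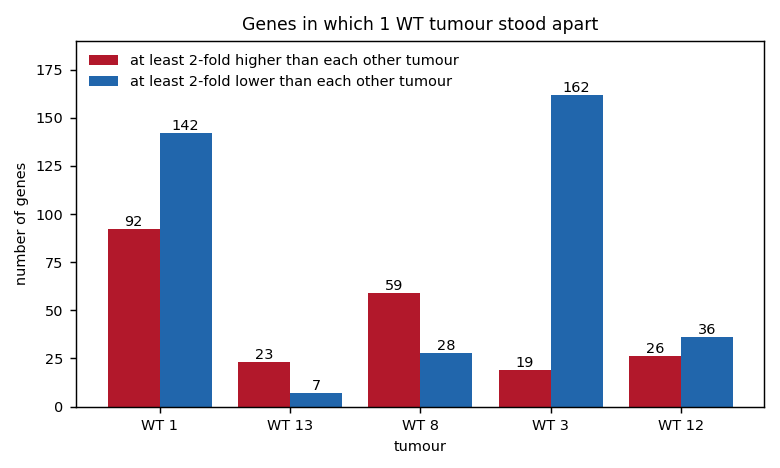
Bars give, for each WT tumour on the horizontal axis, the number of genes (vertical axis, of 12250) in which it lay at least 2-fold above (red) or below (blue) each of the other 4 tumours. Tumour 1 has 92 and 142 such genes, tumour 3 has 19 and 162, and the other tumours have at most 59 in either direction.

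Simply being the extreme tumour is more common and is the background for the marker lists. Tumour 1 was the highest of the 5 in 26.5% of genes and the lowest in 20.1%, and tumour 3 in 25.3% and 25.2%. Tumour 8 was the highest in 17.0% and the lowest in 21.0%, tumour 12 in 16.7% and 18.8%, and tumour 13 in 14.5% and 14.9%.

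Colon differentiation genes and HOX genes led the genes with the largest spread. Among the 30 with the largest SD were goblet and mucus genes (Zg16, Muc2, Clca1, Ang4, Spink4), genes of absorptive cells (Muc3, Car1, Clca4a, Saa1), gasdermin C family genes, 4 HOXD genes and 2 matrix metalloproteinase genes. Hoxd13, a homeobox gene of the hindgut and limb, had the largest SD, 3.93, with 11.45 in tumour 8 and 11.58 in tumour 13 against 3.74 to 5.28 in the other 3. Its second probe set split the tumours in the same way, with 8.47 and 8.35 against 5.03 to 5.25. Gsdmc2, of the pore-forming gasdermin C group, came next, with 4.07 in tumour 1, 5.94 in tumour 13, 11.09 in tumour 8, 11.46 in tumour 3 and 13.02 in tumour 12. It was thus high in 3 tumours and near or below the level filter in the other 2. Zg16, a lectin that goblet cells secrete into mucus, read 6.50 and 8.20 in tumours 1 and 13, and 12.82 to 13.33 in tumours 8, 3 and 12. Its other probe sets, with SDs of 2.25 and 3.26, separated the same tumours. Spink1, a secreted trypsin inhibitor, was lowest in tumour 1 (3.85) and highest in tumour 13 (11.61). Rec8, a cohesin subunit of meiosis, was high in tumours 1 and 13 (10.56 and 10.58), lower in 3 and 12 (8.85 and 8.28), and 3.71 in tumour 8.

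**Figure D2:**
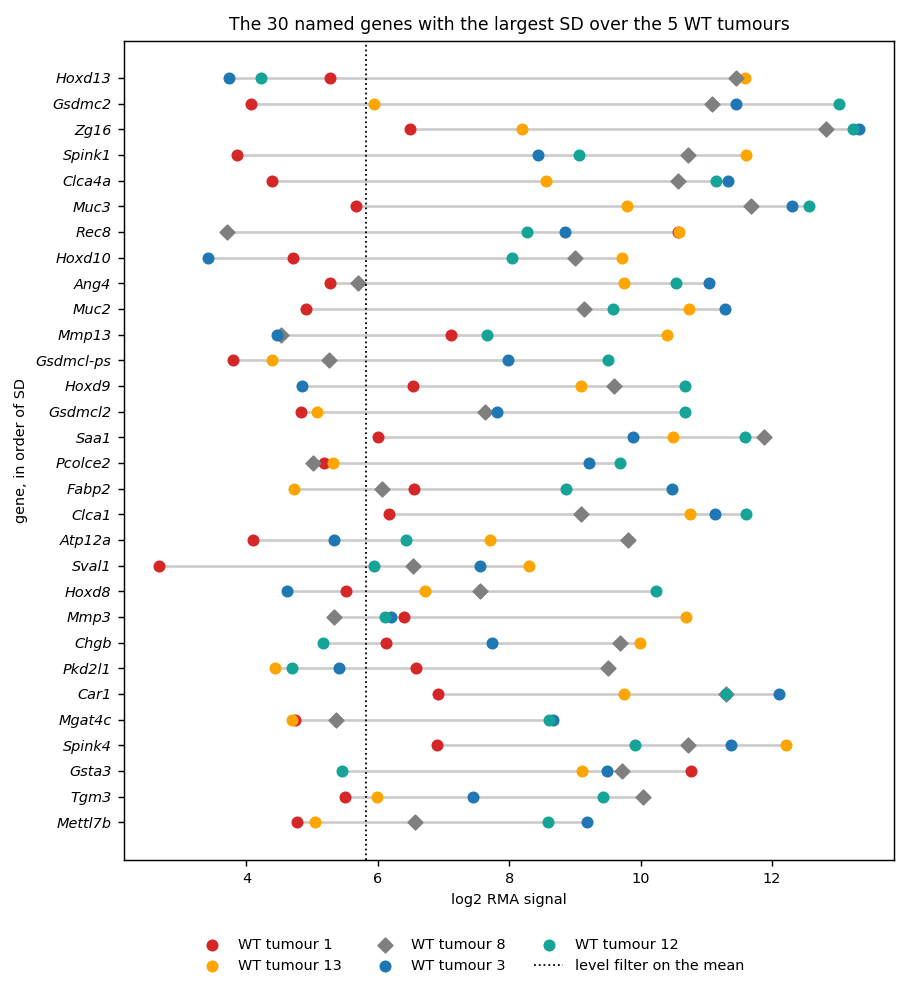
Each row is 1 of the 30 genes with the largest SD, each point the log2 signal (horizontal axis) in 1 tumour, and the dotted line the level filter on the mean, 5.82. Tumour 1 (red) is the leftmost point in most of the mucus and absorptive genes, whereas Hoxd13, at the top, splits tumours 8 and 13 from the other 3.

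Absorptive colonocyte markers were low in tumour 1, intermediate in tumour 13 and high in tumours 8, 3 and 12. Of 22 listed genes, 20 had a probe set and 15 passed the level filter. Their mean signal was 7.92 in tumour 1, 9.27 in tumour 13, 10.13 in tumour 8, 10.35 in tumour 3 and 10.32 in tumour 12. Tumour 1 was the lowest in 13 of the 15, and at least 2-fold below each other tumour in 9. Muc3, a membrane mucin of the brush border, was at 5.67 in tumour 1, 9.79 in tumour 13, 11.68 in tumour 8, 12.31 in tumour 3 and 12.56 in tumour 12. Car1, the carbonic anhydrase of colonocytes, followed the same order at the low end, with 6.91 in tumour 1, 9.75 in tumour 13 and 11.30 to 12.10 in the rest. Krt20, a keratin of mature surface cells, read 7.31, 8.62, 10.89, 11.13 and 11.32 in tumours 1, 13, 8, 3 and 12. Saa1, an acute-phase protein gene, was lowest in tumour 1 (6.01) and highest in tumour 8 (11.88). Guca2a, the precursor of guanylin, which regulates salt and water secretion, ran from 6.60 in tumour 1 to 9.98 in tumour 3. Hsd11b2, which protects the mineralocorticoid receptor from glucocorticoids, ran from 6.10 to 10.33 in the same tumours. The exceptions were Slc37a2, a sugar phosphate transporter that ran only from 5.79 in tumour 3 to 6.30, and Slc9a3, an apical sodium-proton exchanger, which was highest in tumour 1: 11.52 in tumour 1, 10.60 in 13, 10.68 in 8, 9.61 in 3 and 8.47 in 12. In bulk tissue, fewer cells of a type and less RNA of these genes per cell cannot be told apart.

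Goblet cell markers were also lowest in tumour 1, but here tumour 13 was high. The 16 of 19 genes that passed the filter averaged 6.89 in tumour 1, 9.36 in tumour 13, 8.52 in tumour 8, 9.99 in tumour 3 and 9.19 in tumour 12. Tumour 1 was the lowest in 13 of them and apart in 9, and tumour 3 was the highest in 9. Muc2, the gel-forming mucin of the colon, read 4.91 in tumour 1, below the filter level, and 9.13 to 11.28 in the others. Tff3, a trefoil peptide secreted with mucus, read 6.05 against 9.44 to 10.91. Spink4, a secreted goblet cell protease inhibitor, was highest in tumour 13 at 12.21 and lowest in tumour 1 at 6.89. Clca1, a secreted mucus-processing protein, ran from 6.17 in tumour 1 to 11.60 in tumour 12. Ang4, an antimicrobial ribonuclease, grouped the tumours differently: 5.27 in tumour 1 and 5.69 in tumour 8, against 9.75 in 13, 11.03 in 3 and 10.53 in 12. Its second probe set gave the same groups. Zg16 departed from the rest of the list as well, since tumour 13 had high Muc2, Tff3 and Spink4 but a Zg16 of 8.20. The goblet regulators Spdef and Atoh1 were lowest in tumour 1 (5.23 and 4.25) and highest in tumour 3 (7.44 and 6.58), with the mean of Atoh1 below the filter. Gfi1 and Creb3l1, both transcription factors of secretory cells, were highest in tumour 1, at 8.87 and 8.34.

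General epithelial genes ordered the tumours as the colonocyte list did, except that tumours 3 and 12 changed places, and on a much smaller scale. The 15 genes averaged 11.01 in tumour 1, 11.23 in tumour 13, 11.39 in tumour 8, 11.80 in tumour 3 and 11.83 in tumour 12, and tumour 1 was the lowest in 12. Their median SD was 0.30, against 1.01 for the colonocyte list, 0.96 for the goblet list and 0.23 for all genes. Cdh1, the E-cadherin gene, ran only from 11.48 to 12.13, and Krt8 from 12.70 to 13.49. Cdx2, the homeobox factor that sets intestinal identity, stood out with 8.20 in tumour 1, 8.43 in tumour 13, 9.64 in tumour 8, 11.81 in tumour 3 and 11.84 in tumour 12. Its relative Cdx1 read 7.47 in tumour 1, 8.42 in tumour 13, 8.23 in tumour 8, 9.89 in tumour 3 and 9.44 in tumour 12. Of these 15 genes, 1 had an SD of at least 1, Cdx2.

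Wnt target genes ran the other way, highest in tumour 1 and lowest in tumours 3 and 12. The 20 genes measured, all past the filter, averaged 10.78 in tumour 1, 10.48 in tumour 13, 10.37 in tumour 8, 10.01 in tumour 3 and 9.99 in tumour 12. Tumour 1 was the highest in 14, and tumour 3 the lowest in 10. The differences were modest, with a median SD of 0.44 and no member at an SD of 1. Sp5, a transcription factor induced by Wnt, read 11.07 in tumour 1, 10.13 in tumour 13, 9.89 in tumour 8, 9.14 in tumour 3 and 9.43 in tumour 12. Tnfrsf19, the receptor also called TROY, read 9.89 in tumour 1 and 8.48 in tumour 13, had its second highest value in tumour 8, and read 8.28 and 8.12 in tumours 3 and 12. Of the pathway's inhibitors Wif1, a secreted Wnt binder, was at 11.74 in tumour 1 and 10.11 in tumour 3, and Notum, an enzyme that inactivates Wnt ligands, at 10.66 and 9.02. Nkd1, another inhibitor, was 11.72 in tumour 1 and 10.27 and 10.38 in tumours 3 and 12. The inhibitors Dkk2 and Apcdd1 were instead highest in tumour 13, at 11.22 and 12.69, against 10.44 and 12.67 in tumour 1. Not all targets varied: Ccnd1, which drives entry into the cell cycle, stayed between 11.48 and 11.66, and Myc between 10.31 and 10.68, with tumour 1 at its low end. The stem cell list, which shares 8 genes with the Wnt list, averaged 9.95 in tumour 1 and 9.53 to 9.72 in the others. Tumour 1 was the highest in 11 of 17 and the lowest in 4 (Lrig1, Prom1, Slc12a2 and Cdca7). Of those 11, Lgr5, Axin2, Tnfrsf19, Sox9, Cd44, Rnf43 and Znrf3 are also Wnt list genes. The 2 lists are thus not independent, and none of the 4 lowest genes is in the Wnt list. Lgr5, the receptor of crypt base stem cells, read 8.48 in tumour 1 and 7.67 to 8.15 in the others, Smoc2 read 11.21 against 9.58 to 10.41, and Prom1 had the opposite order, from 11.24 in tumour 1 to 12.88 in tumour 12. Olfm4, the stem cell marker of the small intestine, was at or below 2.35 in all 5.

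Promoter letters were read for the members with the largest spread in the Wnt list, because these genes are regulated through TCF/LEF sites. The 60 bases below come from RefSeq on GRCm38.p6, Sp5 at chr2:70474692-70474751 on the plus strand and Tnfrsf19 at chr14:61038156-61038215 on the minus strand, both written 5′ to 3′ along the gene. Capitals mark the letters CTTTGA, the core of the TCF/LEF motif, or their reverse complement TCAAAG.
Sp5: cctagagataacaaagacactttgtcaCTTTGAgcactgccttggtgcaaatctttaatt
Tnfrsf19: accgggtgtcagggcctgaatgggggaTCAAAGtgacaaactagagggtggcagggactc
The match lies 204 to 199 bases before the start of Sp5 and 201 to 196 bases before that of Tnfrsf19. In the 250 bases before the start, on both strands, 4 of the 12 Wnt targets with a promoter entry (33.3%) held these letters, as did 4 of 12 colonocyte genes (33.3%), 12.6% of all passing genes with an entry and 13.8% of all promoter windows. The letters TTTATG, the core of the CDX motif, were in 3 of 12 colonocyte genes (25.0%) and 0 of 12 Wnt targets. They were in 7.52% of all passing genes with an entry and 10.8% of all windows. Of 11 stem cell genes with an entry, 1 held CTTTGA and 1 held TTTATG. A match is a description of the letters and not a bound site, and the colonocyte list, of opposite order, held CTTTGA as often as the Wnt list.

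**Figure D3:**
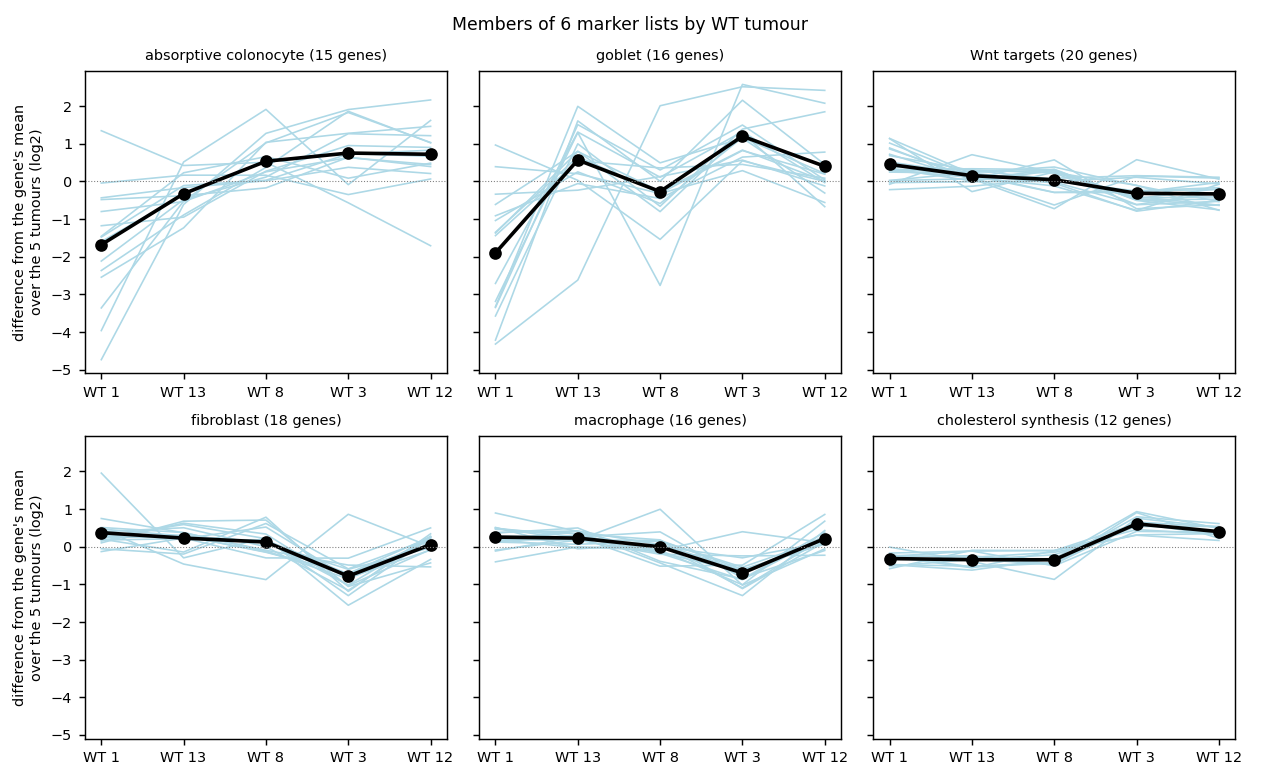
Each thin line is 1 gene, drawn as its difference in log2 from its own mean over the 5 tumours (vertical axis) in each tumour (horizontal axis), and the black line is the list mean. Colonocyte and goblet genes drop in tumour 1, fibroblast and macrophage genes dip in tumour 3, and Wnt targets and cholesterol synthesis genes slope in opposite directions.

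Fibroblast markers were low in tumour 3, and their mean differed little among the other 4 tumours. The 18 fibroblast genes past the filter averaged 9.98 in tumour 1, 9.84 in tumour 13, 9.74 in tumour 8, 8.83 in tumour 3 and 9.67 in tumour 12. Tumour 3 was the lowest in 16 of the 18 and apart in 5. Col1a2 and Col3a1, chains of fibrillar collagen, read 10.97 and 11.27 in tumour 3 against 11.72 to 12.01 and 12.18 to 12.38 in the others. Pdgfrb, a growth factor receptor of fibroblasts and pericytes, was at 7.36 in tumour 3 and between 8.87 and 9.25 elsewhere. Dpt, a matrix protein gene, was at 8.14 against 8.77 to 9.91, and Col6a1, a collagen VI chain, at 7.96 against 9.35, 9.93 and 9.49 in tumours 1, 8 and 12. Islr, a marker of intestinal mesenchyme, had the largest SD of the list (1.27), with 8.88 in tumour 1, 5.37 in tumour 3 and 6.59 to 7.16 in the others. The exceptions were Fbln1, a matrix glycoprotein gene, highest in tumour 3 at 10.62 and lowest in tumour 8 at 8.88, and Thy1, a surface marker of fibroblasts, at 8.53 in tumour 3 and 8.48 in tumour 12.

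Smooth muscle, pericyte and endothelial genes shared this low tumour. Smooth muscle genes, 12 past the filter, averaged 7.46 in tumour 3 and 8.02 to 8.38 in the others, and tumour 3 was the lowest in 9 whereas tumour 12 was the highest in 7. Myh11, the smooth muscle myosin, read 7.65 in tumour 3, 9.02 in tumour 13, 9.11 in tumour 8 and 9.45 in tumour 12, with tumour 1 level with tumour 13. Acta2, the actin of smooth muscle and myofibroblasts, read 8.90 in tumour 3 and 9.68 to 10.43 elsewhere. Of 6 pericyte genes, 5 were lowest in tumour 3, among them Rgs5, which was at 8.99 against 10.04 to 10.44. The 14 endothelial genes averaged 6.62 in tumour 3, 7.33 to 7.49 in tumours 13, 12 and 1, and 7.72 in tumour 8, with 12 lowest in tumour 3 (7 of those past a filter at the 60th percentile). Pecam1, an adhesion molecule of vessels, read 6.83 in tumour 3 and 7.86 to 8.10 in the others. Vwf, which endothelial cells release for clotting, read 7.43 in tumour 3, 8.39 to 8.56 in tumours 1, 12 and 13, and 9.69 in tumour 8. Cldn5, a tight junction gene of vessels, was also highest in tumour 8 (8.33) and lowest in tumour 3 (5.62). Tek, the angiopoietin receptor, was highest in tumour 1 (8.53) and lowest in tumour 3 (5.89).

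Macrophage, neutrophil and antigen presentation genes were low in tumour 3 as well. The 16 macrophage genes averaged 8.64 in tumour 1, 8.61 in tumour 13, 8.38 in tumour 8, 7.68 in tumour 3 and 8.60 in tumour 12, and tumour 3 was the lowest in 14. Csf1r, the receptor on which macrophages depend, was at 9.16 in tumour 3 and between 10.31 and 10.67 in the others. Tyrobp, a signalling adaptor of myeloid cells, was at 8.59 against 9.83 to 10.17. Ms4a7 was at 6.93 in tumour 3, 7.80 in tumour 8 and 8.63 to 9.12 in the others, whereas Mrc1, the mannose receptor, peaked in tumour 8 (9.23). All 7 neutrophil-list genes past the filter were lowest in tumour 3, and 4 of them lay at least 2-fold below every other tumour. The list averaged 6.25 in tumour 3 and 7.91 to 8.69 elsewhere, with the maximum in tumour 13. S100a8 and S100a9, which form calprotectin, read 6.21 and 7.51 in tumour 3 and 9.40 and 10.68 in tumour 13. Cxcl2, a chemokine that draws neutrophils, read 4.45 in tumour 3, 6.74 in tumour 1 and 8.03 to 8.43 in the others. More specific neutrophil genes (Csf3r, Cxcr2, Ngp, Elane) had means below the filter, and with all 15 listed genes the difference of tumour 3 from the rest was −0.97 in place of −1.94. The 6 genes of MHC class II, which presents antigen to T cells, averaged 8.26 in tumour 3 and 8.90 to 9.20 in the others, and 5 were lowest in tumour 3. H2-Aa, a class II chain, read 9.12 in tumour 3 and 10.14 to 10.64 elsewhere.

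Inflammatory mediators had their extremes in tumours 3 and 13. The 11 genes averaged 6.49 in tumour 3, 7.41 to 7.89 in tumours 8, 1 and 12, and 8.29 in tumour 13. Tumour 3 was the lowest in 7 (3 of those past a filter at the 60th percentile), and tumour 13 was apart as the highest in 3. Ptgs2, the inducible cyclooxygenase, read 4.67 in tumour 3, 5.85 in tumour 8, 7.09 in tumour 1, 7.59 in tumour 12 and 8.82 in tumour 13. Il11, a cytokine of the Il6 family, read 7.59 in tumour 13 and 5.19 to 5.62 in the others. Il6 and Il17a were at or below 3.73 in all 5. Il1b and Cxcl2, both lowest in tumour 3, belong to the neutrophil list as well, so these lists are not independent.

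Interferon response genes were low in tumour 3 and high in tumours 8 and 12, which split the list between them. The 19 genes averaged 7.24 in tumour 1, 7.48 in tumour 13, 7.99 in tumour 8, 6.66 in tumour 3 and 8.10 in tumour 12, with 15 lowest in tumour 3 (9 of those past a filter at the 60th percentile). Tumour 8 was the highest in 9 and tumour 12 in 8. Among those highest in tumour 8, Iigp1, an immunity-related GTPase, read 9.09 in tumour 8, 6.90 to 7.87 in tumours 1, 13 and 12, and 4.98 in tumour 3, and the guanylate-binding protein gene Gbp2 read 7.85 in tumour 8 and 4.51 in tumour 3. Among those highest in tumour 12, Ifit1 read 9.74 there and 6.61 to 7.56 in the others, and Ifit3 read 9.39 against 6.78 to 7.95. Usp18, a brake on interferon signalling, was highest in tumour 1, at 8.60 against 6.37 to 7.23.

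The remaining immune lists were led by tumours 8 and 12. Mast cell genes, 8 past the filter, averaged 8.09 in tumour 8 and 6.43 to 7.33 in the others, and tumour 8 was the highest in 5 (1 of those past a filter at the 60th percentile). Ms4a2, the beta chain of the IgE receptor, read 9.84 in tumour 8, 5.36 in tumour 13 and 6.85 to 7.58 in the others. The mucosal mast cell protease gene Mcpt1 was instead highest in tumour 12 (10.12). T and NK cell genes were mostly below the filter, with 7 of 21 past it, and Cd3e and Cd8b1 were at or below 5.15 in all 5 tumours. Their list mean ran only from 6.70 to 7.08, and the tumour 8 excess of 0.27 turned to −0.28 with a filter at the 60th percentile and to −0.02 without tumour 1. Icos, a T cell costimulator, was 7.55 in tumour 12 and 6.29 to 6.61 elsewhere, and Gzma, a protease of cytotoxic cells, was 7.45 in tumour 8 and 4.85 to 6.22 elsewhere. Of the B and plasma cell genes 4 of 14 passed. Ighm, the constant region of IgM, read 8.13 in tumour 3 and 8.23 in tumour 12 against 4.92 to 5.48 in the others, whereas Jchain, which joins IgA and IgM units, was highest in tumours 1 (10.19) and 12 (10.25). The B cell markers Ms4a1 and Cd79a did not exceed 5.34 in any tumour.

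**Figure D4:**
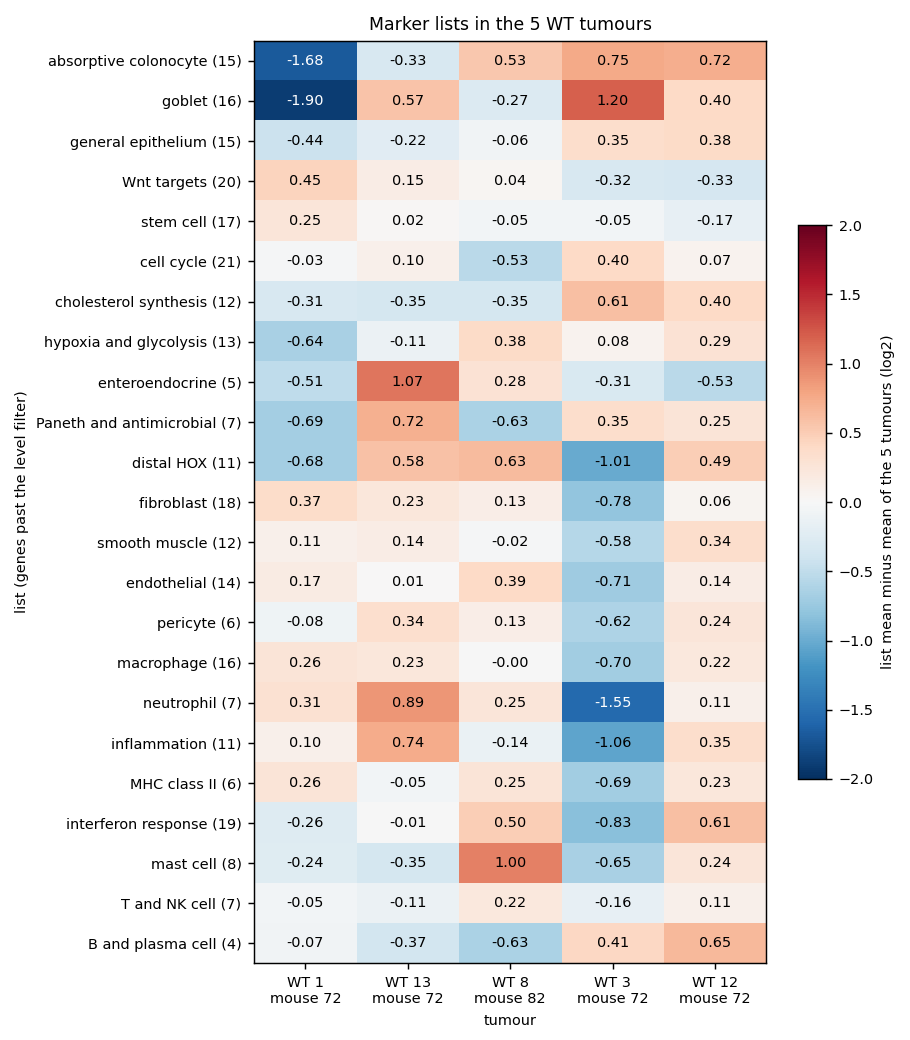
Each cell gives the mean of a marker list in 1 tumour minus its mean over the 5 tumours, in log2 (colour scale from −2 to 2), with the number of genes in parentheses. The stromal, vessel and myeloid lists are lowest in tumour 3, and the colonocyte and goblet lists are lowest in tumour 1.

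The markers thus fell into groups that shared an extreme tumour. Fibroblast, smooth muscle, pericyte, endothelial, macrophage, neutrophil, MHC class II, inflammation and interferon lists all had their lowest mean in tumour 3, as did the tuft, lymphatic, mast, immediate early and distal HOX lists. The dendritic and the T and NK lists did so only with the level filter, and over all their measured genes tumours 8 and 13 were the lowest, by small margins (5.44 against 5.45 in tumour 3, and 5.30 against 5.39 in tumour 3). Over all 12250 genes the mean was 8.50 in tumour 3 and 8.53 to 8.54 in the others. Colonocyte, goblet, general epithelial, hypoxia, squamous and Paneth lists had theirs in tumour 1, and so did the adipocyte (3 genes) and neural (2 genes) lists, which over all measured genes were lowest in tumours 8 and 12. In the squamous and Paneth lists few members carried this. Tumour 1 was the lowest in 2 of 9 and 3 of 7 genes, against 20.1% of all genes, and the highest in 2 of each. The Paneth mean was 9.68 in tumour 1 and 9.74 in tumour 8. Of the lists lowest in tumour 3, some also rested on part of their members. Tumour 3 was the lowest in 2 of 4 tuft, 4 of 8 mast and 5 of 11 distal HOX genes, against 25.2% of all genes. Tumour 12 was the lowest in 2 tuft genes, and tumour 3 was the highest in 3 distal HOX genes. The tuft difference of tumour 3 from the rest was −0.88, and −0.28 with no filter. These orders were looked at after the values were known, and 5 tumours are too few for a correlation across them. Tumour 3 also had the smallest 3′ to 5′ difference of the Gapdh control probe sets, a sign of RNA or copy length (1.40 against 1.59 to 2.12), though not of the actin control (0.16, within the range of 0.09 to 0.26), the lowest unique number (191), and a red blood cell list of 8.90, next to 8.91 in tumour 12 and 9.19 to 9.40 in the others. Tumour 1 had the highest unique number (254), a Gapdh difference of 1.59 and a red cell value of 9.19. The part of these values in the results was not tested.

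A split of the 4 tumours of mouse 72 into 3 and 12 against 1 and 13 was seen in several lists. Both of tumours 3 and 12 lay above both of 1 and 13 in 2791 genes (22.8%), and below them in 3199 (26.1%). Among the 354 genes with an SD of at least 1 these counts were 129 (36.4%) and 111 (31.4%). All 12 cholesterol synthesis genes lay above, as did 11 of 15 colonocyte, 11 of 15 general epithelial and 7 of 13 hypoxia and glycolysis genes. In all 11 of those colonocyte genes tumour 8 lay between the 2 pairs. The goblet and small intestine lists, with 5 of 16 and 2 of 8 genes above, were nearer the share of all genes. Below were 16 of 20 Wnt targets, 14 of 18 fibroblast genes and 8 of 17 stem cell genes. Cholesterol genes averaged 10.98 in tumour 3 and 10.78 in tumour 12 against 10.03 to 10.06 in the other 3. Lss, which closes the sterol ring, read 11.36 and 10.91 in tumours 3 and 12 and 9.80 to 10.11 in the others. Fdps, an enzyme of the isoprenoid steps, read 9.89 and 9.66 against 8.27 to 9.13. Hypoxia and glycolysis genes averaged 9.41 in tumour 1, 9.94 in tumour 13, 10.44 in tumour 8, 10.13 in tumour 3 and 10.35 in tumour 12. Car9, a carbonic anhydrase induced by low oxygen, read 9.43 and 9.39 in tumours 3 and 12, 8.43 in tumour 8 and 6.71 to 6.86 in tumours 1 and 13.

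Single genes with the widest gap between the pairs were picked from the data and are given as examples. After Gsdmc2 and Zg16, the gap was largest for Pcolce2, a collagen-processing enhancer, at 9.21 and 9.68 in tumours 3 and 12 and 5.01 to 5.32 in the other 3. Eomes and Foxd2, both transcription factors, read 7.81 and 8.70 in tumour 3, 7.74 and 8.57 in tumour 12, and at most 5.10 and 5.69 in the others. In the other direction, Robo1, the receptor of Slit guidance ligands, read 11.46 to 11.81 in tumours 1, 13 and 8 against 8.72 and 8.61 in tumours 3 and 12. Gata5, a transcription factor, read 8.56 and 8.12 in tumours 1 and 13, 6.53 in tumour 8, and 5.20 and 5.72 in tumours 3 and 12. Wnt10a, a Wnt ligand, read 8.81, 7.97 and 8.02 in tumours 1, 13 and 8 against 6.11 and 5.79. Pparg, a nuclear receptor of mature colonocytes and fat cells, was picked from the adipocyte list for its SD and not by this gap. It read 10.60 and 10.22 in tumours 3 and 12, 8.66 in tumour 8 and 6.96 and 7.79 in tumours 1 and 13.

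HOX genes, which encode position along the gut axis, gave each tumour its own profile. All 4 HoxD genes past the filter had an SD of at least 1, with a median SD of 2.58, and so did 3 of 6 HoxB genes, against 0 of 8 HoxA and 0 of 2 HoxC genes (2.89% of all genes). Hoxd13 was high in tumours 8 and 13 only. Hoxd10 was high in tumour 13 (9.72), next in tumour 8, and high in tumour 12 (8.05), against 4.71 in tumour 1 and 3.42 in tumour 3. Hoxd9 read 10.67 in tumour 12, 9.59 in tumour 8, 9.10 in tumour 13, 6.53 in tumour 1 and 4.85 in tumour 3, and Hoxd8 peaked in tumour 12 at 10.23. Both probe sets of Hoxd8 put tumour 12 highest and tumour 3 lowest. The HoxB genes of the middle of the cluster followed another order: Hoxb5 read 10.05 in tumour 12, 9.65 in tumour 1, 8.12 in tumour 13, 7.44 in tumour 8 and 5.71 in tumour 3, and Hoxb6 had the same order from 8.05 to 3.53. Hoxa9 was between 11.90 and 12.18 in all tumours, and Hoxb9 between 7.52 and 7.89. Tumour 3 thus had the lowest value of all 4 passing HoxD genes and of Hoxb13 (9.06, against 10.34 to 11.13). Hoxa10, Hoxa11 and Hoxa13 went the other way, highest in tumour 3 at 10.63, 9.79 and 7.19. Their values in the other tumours were at most 10.40, 8.72 and 6.97. Tumours 8 and 13, of different mice, were the most alike in HoxD. The HOX clusters were examined as families after Hoxd13 was seen to lead the list.

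**Figure D5:**
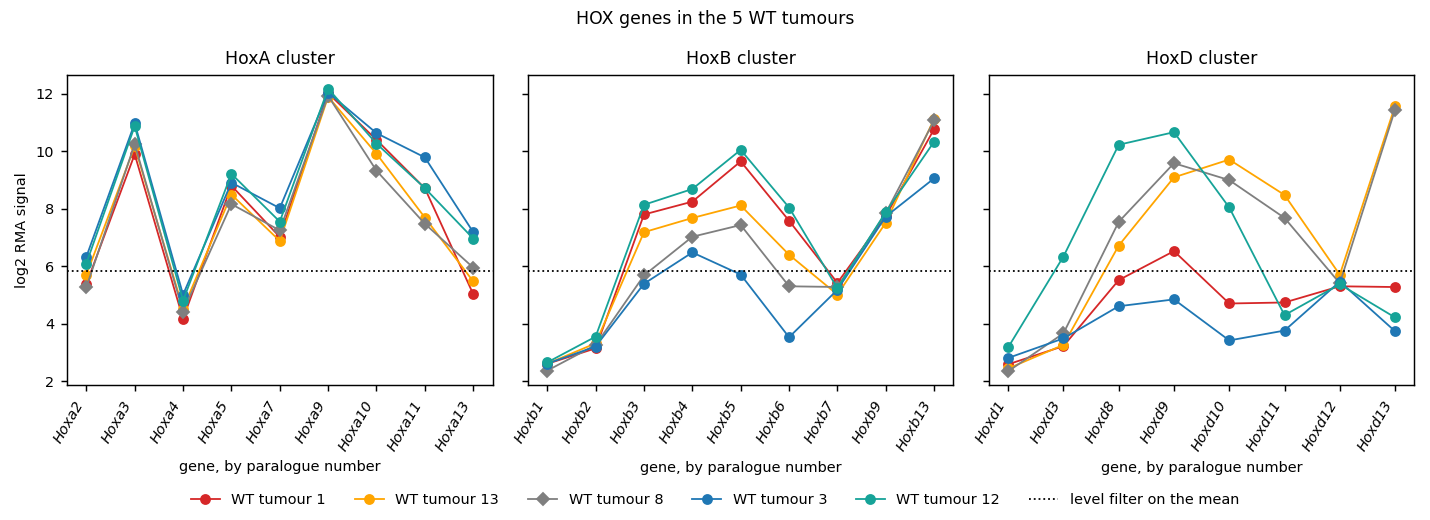
Log2 signals (vertical axis) of HOX genes, ordered by paralogue number within 3 clusters (horizontal axis), with 1 colour for each tumour and the level filter of 5.82 as a dotted line. Lines only join the points of a tumour, since signals of different genes come from different probe sets, and the tumours spread over several log2 units in HoxD but lie close together at Hoxa9 and Hoxb9.

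Tumour 1 had its own high genes besides low differentiation genes. The 5 with the widest gap were Habp2, a plasma protease, at 9.81 against 5.70 to 6.91, Apod, a lipid carrier, at 11.03 against 6.30 to 8.46, Igfbp1, an IGF-binding protein, at 9.77 against 5.64 to 7.26, Tcfl5 at 8.27 against 4.79 to 6.00, and Prss56 at 9.35 against 5.82 to 7.24. Pnliprp1, a pancreatic lipase relative, was 12.83 in tumour 1 and 9.40 to 11.08 in the others, and its relative Pnliprp2 and the elastase gene Cela1 were also highest there (13.43 and 9.53). Of the 10 pancreatic acinar genes with a probe set 5 passed the filter, with Clps, colipase, highest in tumour 13 (9.41) and Cela3b between 6.47 and 7.03, and the others, Cela2a, Cpa1, Cpb1, Ctrb1 and Cel, were at or below 5.68 in all 5 tumours. On the low side were Spink1, Muc2, Muc3 and Saa1, given above, and Clca4a, a chloride channel regulator, at 4.39 against 8.55 to 11.33. Pigr, which carries IgA through the epithelium, was 7.67 in tumour 1 and 10.59 to 11.55 in the others.

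Tumour 3 stood apart mostly by low genes. Zfp182, a zinc finger gene, read 5.26 in tumour 3 and 8.32 to 8.57 in the others. Cpm, a membrane carboxypeptidase, read 4.18 against 6.87 to 9.05, Chodl, a membrane lectin, 3.08 against 5.67 to 7.93, and Serpinb11, a serpin family gene, 4.68 against 6.96 to 8.66. The widest gaps on the high side were smaller and included Gpc3, a glypican, at 8.05 against 5.41 to 6.10, Muc4, a membrane mucin, at 10.06 against 7.81 to 8.55, and E2f2, a cell cycle transcription factor, at 9.29 against 6.82 to 7.78. Fabp2, the fatty acid binding protein of the small intestine, read 10.48 in tumour 3, 8.87 in tumour 12 and 4.72 to 6.55 in the others, while Fabp1 stayed at or below 5.01 in all.

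Tumour 8, from the other mouse, was apart as the highest in genes of several lists described above. These were 3 of 8 mast cell, 2 of 14 endothelial and 2 of 19 interferon genes, among others, against 0.482% of all genes. The genes given next were picked for the widest gap. Rec8 was the lowest gene of tumour 8 by gap. Ildr2 read 8.95 in tumour 8 and 4.80 to 5.52 in the others, Pkd2l1, a cation channel gene, 9.51 against 4.43 to 6.58, Epb41l3, a cytoskeletal linker, 9.24 against 5.59 to 6.32, and Wfdc2, a secreted protease inhibitor, 10.52 against 6.42 to 8.07. Slc15a2, a peptide transporter, read 5.35 against 7.96 to 9.57, and the chemokine gene Ccl27a read 4.77 against 6.73 to 8.10. What belongs to this tumour and what to its mouse cannot be told apart.

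The genes picked for the widest gap in tumour 12 lay, by that choice, at least 2-fold from tumour 3 as well. Gsdmcl2 read 10.67 in tumour 12 and 7.81 in tumour 3, and Pla2g4c, a phospholipase, 8.81 against 5.51 to 6.23 in the other 4. Gsta3, a glutathione transferase, read 5.46 in tumour 12 and 9.10 to 10.76 in the others, and Onecut2, a transcription factor, 5.24 against 8.03 to 9.46. Cldn2, a pore-forming claudin of crypts, was 10.28 in tumour 12 and 11.97 to 12.51 elsewhere, and Gas1, a hedgehog co-receptor, was 6.07 against 8.38 to 9.19.

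The genes with the widest gap in tumour 13 were Mmp3, Mmp13, Dio2, Defa31 and Defa39. Mmp3, stromelysin, read 10.69 in tumour 13 and 5.33 to 6.39 in the other 4. Mmp13, a collagenase, read 10.40 in tumour 13, 7.65 in tumour 12, 7.12 in tumour 1, 4.52 in tumour 8 and 4.46 in tumour 3. The related Mmp10 and Mmp12, chosen after these were seen, were also highest in tumour 13, at 12.10 and 8.39, whereas Mmp7, Mmp11, Mmp14 and Mmp23 were highest in tumour 1 and Mmp2 in tumour 8. Of the 7 Paneth and antimicrobial genes past the filter 3 were highest in tumour 13. Defa31 and Defa39, of the alpha-defensins that Paneth cells secrete, read 13.34 and 8.77 in tumour 13 and at most 10.89 and 6.46 in the others, whereas Defa3 was highest in tumour 3 (6.92, against 6.03 in tumour 13). Probes of this family of near-identical genes may share signal. Reg3g and Reg3b, antimicrobial lectins with means below the filter, read 10.50 and 9.01 in tumour 13 and at most 4.78 and 4.62 in the others. Dio2, which activates thyroid hormone, read 8.61 against 4.86 to 5.99. The 5 enteroendocrine genes past the filter averaged 8.75 in tumour 13 and 7.15 to 7.96 in the others, a difference from the rest of 1.33 that was 0.64 with no filter, and 3 of the 5 were highest there. Pyy, a peptide hormone, read 9.58 in tumour 13 and 6.81 to 7.27 in the others, and Chgb, a granule protein, was highest in tumour 13, read 9.69 in tumour 8, and ran from 5.16 to 7.74 elsewhere, whereas Cpe, a hormone-processing carboxypeptidase, was highest in tumour 12 (10.71). Tumour 13 had the largest Gapdh 3′ to 5′ difference (2.12) but a middle value of the actin one (0.17), and their part in these values was not tested.

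Cell cycle genes had a median SD of 0.39, against 1.01 for the colonocyte list, 0.96 for the goblet list and 0.23 for all genes. Their means did not follow the split of tumours 3 and 12 from 1 and 13. The 21 genes averaged 9.45 in tumour 3, 9.16 in tumour 13, 9.13 in tumour 12, 9.03 in tumour 1 and 8.53 in tumour 8. Tumour 3 was the highest in 16 of 21, and tumour 8 the lowest in 18. Mki67, a marker of dividing cells, ran only from 11.43 in tumour 1 to 12.13 in tumour 3. Rrm2, which makes nucleotides for DNA synthesis, read 11.28 in tumour 3, 9.63 in tumour 8 and 10.25 to 10.61 in the others.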

How the data were processed

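The authors deposited log2 signals for 45101 probe sets on each array, made with RMA per the submitters' processing notes (version not given in the sources used here). RMA gives all arrays nearly one distribution, so a change shared by most genes would not show. Controls (64 probe sets) and probe sets with several symbols (932) or none (9160) were left out. Of 34945 with 1 symbol, 34741 were matched by Entrez identifier to mouse names of assembly GRCm38.p6. Each gene was taken at the probe set with the highest mean over all 10 arrays, which gave 18193 genes, and 12250 passed the level filter. SDs, gaps and list means were computed in Python 3.11.15 (numpy 2.4.6, pandas 2.3.3) with no test, and the calls were tested on simulated data. The members and the 36 gene lists were chosen with earlier results of these data known. Genes named were the 20 strongest, the 30 with the largest SD, 5 per tumour and direction with the widest gap, and 4 or 2 per list with the largest SD. Clone names were left out (3 by SD, 1 by signal). Other list members, HOX and metalloproteinase families and the genes of the split between tumour pairs were chosen after their values were seen. Alternatives were other level filters, other probe set choices, centring on the median, cyclic loess (limma 3.58.1, R 4.3.3) and leaving out each tumour.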

Additional observations from a re-analysis of the deposited data

Results flagged for a closer look

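Among the 161 named genes and the marker lists, a single tumour lay far from the other 4 (a gap of over 0.71 of the whole range, Dixon's 95% critical value for 5 samples) for 22 genes and 2 lists. Chance flags about 1 in 20 groups, and 761 of the 12250 genes (6.21%) met it. Since many named genes were chosen for a wide gap, no more is read from their number.

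Tumour 3 was the low tumour for the fibroblast list mean (8.83) and the macrophage list mean (7.68). It was also low for the stromal and vessel genes Pdgfrb (7.36), Myh11 (7.65), Myl9 (8.72), Rgs5 (8.99) and Emcn (5.01), for the myeloid and class II genes Tyrobp (8.59) and H2-Eb1 (8.80), and for Zfp182 (5.26), and it was high for Gpc3 (8.05). Tumour 1 was low for Pigr (7.67) and Sprr1a (5.70). In tumour 8, Epb41l3 (9.24), Ildr2 (8.95) and Speer4cos (8.63) were high and Ran (13.46) was low, the last by a small amount within a range of 0.14. Tumour 12 was high for Icos (7.55) and Pla2g4c (8.81) and low for Cldn2 (10.28) and Gas1 (6.07). Tumour 13 was high for Mmp3 (10.69), Defa39 (8.77) and Pyy (9.58).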

How the results depend on the processing

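Of 1314 values recomputed under 13 alternatives, 1227 stayed within their limits, 85 moved and 2 changed sign. All 375 SDs, and 388 of 403 list differences, stayed within their limits. The SDs are those of the 30 named genes with the largest SD, under each alternative in which the gene was counted. The limit for an SD was a change smaller than its main value. A smaller SD always meets this limit, so no stability is read from it. A list difference had to keep its sign and change by less than the SD of the list's means over the tumours. A level filter at the 60th percentile, which tests fewer genes, left 223 genes with an SD of at least 1 and lowered the counts of genes apart to 51 high in tumour 1, 10 high and 105 low in tumour 3, 22 high and 18 low in tumour 8, 12 high in tumour 12 and 10 high in tumour 13. No level filter gave 33, 105, 41 and 37 high in tumours 3, 8, 12 and 13, and a filter on the highest tumour gave 29 and 97 in tumours 3 and 8. The mean of all probe sets gave 95, 22 and 4 low in tumours 3, 12 and 13. Leaving out 1 tumour gave 103 to 163 high and 150 to 257 low in tumour 1, 24 to 133 and 168 to 285 in tumour 3, 68 to 108 and 33 to 52 in tumour 8, 33 to 105 and 40 to 123 in tumour 12, and 34 to 51 and 9 to 61 in tumour 13, higher by construction, since fewer tumours bound the gap. The neutrophil difference of tumour 3 was −0.97 with no filter. The T and NK difference of tumour 8 was 0.0858 with no filter, −0.28 with the 60th percentile and −0.0241 to 0.3277 with 1 tumour left out. No paired analysis was possible because only 1 group was used. Background signal limits genes near the filter.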

Other observations

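Several smaller lists were not described above. The gasdermin C genes Gsdmc2, Gsdmcl2 and the pseudogene Gsdmcl-ps were all highest in tumour 12 and lowest in tumour 1, with Gsdmcl-ps at 9.50 and 3.80, and probe sets of such close relatives may share signal. Of the Clca genes, 4 of the 5 past the filter had an SD of at least 1, and Clca4b peaked in tumour 8 (12.07) while Clca3b peaked in tumour 12 (10.95). Tuft cell genes had 4 of 12 past the filter, with Avil, an actin-binding protein, at 10.65 in tumour 1 and 7.66 in tumour 12, and Dclk1 and Pou2f3 at or below 5.19 in all 5. Regenerative genes averaged 10.15 to 10.62, with Clu, clusterin, at 13.17 in tumour 1 and 11.12 in tumour 8, and Il33, an alarmin, at 9.49 and 7.02 in the same tumours.

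Squamous keratins did not move together: Krt4 was lowest in tumour 12 (5.30) and highest in tumour 8 (8.26), Krt5 stayed between 6.20 and 6.44, and Krt13 read 9.13 in tumour 12, 8.11 in tumour 3 and 5.25 to 6.36 in the others, while Trp63, the master factor of squamous epithelium, stayed at or below 5.66. Lyve1, a lymphatic and macrophage receptor, read 7.38 and 7.44 in tumours 13 and 8, 6.47 in tumour 1 and 5.26 and 5.46 in tumours 3 and 12. Adipocyte markers Adipoq, Lep and Plin4 were at or below 5.73 in every tumour, and Lpl, a lipase also made by macrophages, ran from 6.61 in tumour 8 to 9.22 in tumour 1. Neural and glial genes had 2 of 15 past the filter, of which Ret ran from 5.79 to 7.26. Dendritic cell genes averaged 6.38 to 6.79, and the eosinophil genes measured were all below the filter, at or below 4.50. Immediate early and heat shock genes averaged 8.90 in tumour 3 to 9.44 in tumour 12, with Dusp1 at 8.46 in tumour 3 and 10.71 in tumour 8.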
